A study of Mus musculus with 3 samples.

Results

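At the ends of mouse protein-coding genes in embryonic epidermis, 1653 regions carried a peak of the histone deacetylase HDAC3 and a peak of the transcription factor KLF4 at one site. The regions were chosen by the positions of called peaks, and so by the values that made both peaks pass the authors' caller: the centre of an HDAC3 peak had to lie less than 1 peak width from the centre of a KLF4 peak, so that both overlapped, and within 1 kb of either annotated end of a protein-coding gene in build GRCm38. These regions made up 2.85% of the 57936 HDAC3 peaks, and 11% of the 14962 HDAC3 peaks that overlapped a KLF4 peak anywhere on the chromosomes. They fell at 1822 of 21887 protein-coding genes. A shared peak within 1 kb of either end was therefore the state of 8.32% of all protein-coding genes, and the shares given for gene groups are read against that value.

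The data came from chromatin immunoprecipitation and sequencing (ChIP-seq) of fixed and sonicated dorsal epidermis from wild-type embryos at E18.5. There were 3 libraries, 1 with an antibody to HDAC3 (Abcam ab7030), 1 with an antibody to KLF4 (R&D AF3158) and 1 of input DNA without antibody. The deposited tables list 57936 HDAC3 peaks and 47155 KLF4 peaks, called on 56787485 HDAC3 tags and 61432711 KLF4 tags against the same input. Each antibody was used on 1 library, so replicate error cannot be given and nothing was tested between conditions, and the intervals given are exact 95% binomial intervals that cover counting error only. Whole epidermis was used, so a low peak in all cells and a high peak in few cells cannot be told apart.

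HDAC3 removes acetyl groups from histones as the catalytic subunit of the NCoR and SMRT corepressor complexes, and it reaches DNA through transcription factors because it has no DNA-binding domain of its own. KLF4 is a zinc finger factor of the Krüppel-like family that binds CACCC-type and GC-rich sequences and is required in mouse epidermis for the skin barrier. Keratinocytes leave the basal layer, pass through the spinous and granular layers, and end as cornified cells that are sealed by a crosslinked protein envelope and by extruded lipids.

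The regions that lay wholly inside a promoter sequence of their gene could be printed. There were 201 such regions, and 11 are given here because they include the 2 with the best mean rank of both scores, 6 genes of the barrier, inflammation and immediate early groups described further on, Ly6g5b and Gsta1 from the extremes of enrichment and height, and Nme1 as the best-ranked of them with the KLF4-type motif. All sequences are from RefSeq (GRCm38.p6), 5′ to 3′ on the strand of the gene, with both coordinates counted from 1. Capitals mark matches on either strand to GGGTGTG (a KLF4-type motif), GGGCGTG (a second KLF-type motif), CCACCC (a short CACCC box) or TGANTCA (the AP-1 motif of FOS and JUN proteins).
Tmem79, chr3:88334413-88334597, minus strand: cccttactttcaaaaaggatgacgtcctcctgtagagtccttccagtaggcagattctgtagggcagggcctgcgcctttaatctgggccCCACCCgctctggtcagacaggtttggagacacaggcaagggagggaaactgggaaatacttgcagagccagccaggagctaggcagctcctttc
Cldn4, chr5:134946933-134947117, minus strand: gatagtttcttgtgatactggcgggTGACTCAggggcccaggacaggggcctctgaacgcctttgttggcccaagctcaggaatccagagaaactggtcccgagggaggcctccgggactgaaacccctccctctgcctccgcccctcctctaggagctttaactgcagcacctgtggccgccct
Nme1, chr11:93968321-93968505, minus strand: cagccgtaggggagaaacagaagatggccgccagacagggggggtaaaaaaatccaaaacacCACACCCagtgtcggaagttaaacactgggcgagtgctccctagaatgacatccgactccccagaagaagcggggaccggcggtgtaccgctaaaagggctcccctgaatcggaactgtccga
Abca12, chr1:71414931-71415115, minus strand: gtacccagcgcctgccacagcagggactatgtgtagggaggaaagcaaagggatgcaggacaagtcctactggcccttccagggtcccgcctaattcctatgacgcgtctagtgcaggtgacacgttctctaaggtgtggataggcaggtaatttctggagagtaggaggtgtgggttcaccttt
Ly6g5b, chr17:35118519-35118703, minus strand: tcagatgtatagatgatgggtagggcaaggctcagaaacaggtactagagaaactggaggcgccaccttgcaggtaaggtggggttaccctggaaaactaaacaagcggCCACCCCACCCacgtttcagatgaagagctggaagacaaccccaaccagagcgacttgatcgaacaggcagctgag
S100a9, chr3:90695731-90695915, minus strand: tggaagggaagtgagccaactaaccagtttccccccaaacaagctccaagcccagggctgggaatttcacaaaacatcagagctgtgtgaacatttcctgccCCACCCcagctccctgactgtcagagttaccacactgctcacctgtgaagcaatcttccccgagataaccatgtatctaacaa
Sdr9c7, chr10:127898354-127898538, plus strand: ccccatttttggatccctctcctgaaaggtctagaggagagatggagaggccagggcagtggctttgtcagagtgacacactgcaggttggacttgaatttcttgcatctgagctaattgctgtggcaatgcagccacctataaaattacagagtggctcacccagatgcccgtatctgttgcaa
Ivl, chr3:92573753-92573937, minus strand: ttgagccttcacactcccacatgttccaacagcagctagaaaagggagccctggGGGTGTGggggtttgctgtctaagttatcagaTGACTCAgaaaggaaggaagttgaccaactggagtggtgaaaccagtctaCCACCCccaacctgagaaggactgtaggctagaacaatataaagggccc
Sprr2h, chr3:92385482-92385666, plus strand: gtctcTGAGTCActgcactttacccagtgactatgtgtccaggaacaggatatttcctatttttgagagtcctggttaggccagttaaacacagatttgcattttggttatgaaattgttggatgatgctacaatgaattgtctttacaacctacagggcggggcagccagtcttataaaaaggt
Dusp6, chr10:99263013-99263197, plus strand: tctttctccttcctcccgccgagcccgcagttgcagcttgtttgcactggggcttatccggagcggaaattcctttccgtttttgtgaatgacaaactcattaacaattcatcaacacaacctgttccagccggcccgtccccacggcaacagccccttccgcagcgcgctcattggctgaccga
Gsta1, chr9:78230490-78230674, plus strand: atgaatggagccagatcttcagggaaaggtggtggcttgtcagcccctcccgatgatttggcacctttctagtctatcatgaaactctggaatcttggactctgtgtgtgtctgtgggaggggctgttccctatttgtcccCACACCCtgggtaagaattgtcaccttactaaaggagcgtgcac
These sequences differed in what they held. Tmem79 and S100a9 had a CACCC box, and Ly6g5b had a pair of overlapping ones. Cldn4 and Sprr2h had an AP-1 match without a KLF-type match, Nme1 and Gsta1 had the KLF4-type motif, and the Ivl promoter held the KLF4-type motif, a CACCC box and an AP-1 match within 1 region. The regions of Abca12, Sdr9c7 and Dusp6 held none of these 4 motifs, which says only that these letters are not in these bases. Over all 201 regions the KLF4-type motif was in 10.4%, the second KLF-type motif in 8.46%, a CACCC box in 28.4% and an AP-1 match in 12.9%. The 11 were picked, so they do not stand for these shares.

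Peak height is given as the score of the authors' peak caller, a position-adjusted number of tags in the peak that is not scaled to a library size, and enrichment as the caller's fold over input. The regions were chosen for having both peaks, so these values describe them and were not tested. The antibodies and libraries differ, so neither scores nor folds compare the occupancy of HDAC3 with that of KLF4. The HDAC3 score had a median of 45, with quartiles of 33 and 61 and a range of 16 to 214, and the KLF4 score had a median of 92, with quartiles of 58 and 156 and a range of 19 to 717. HDAC3 peaks had a median of 6.66-fold over input and KLF4 peaks of 9.95-fold, and the KLF4 fold was above the HDAC3 fold in 76.0% of regions. The input tags under the peaks had a median of 4 for each factor. Both factors reached at least 8-fold over input in 495 of the 1653 regions (29.9%).

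By score, the shared regions at gene ends held peaks as high as shared peaks elsewhere, and higher ones than gene-end peaks of 1 factor alone. The median HDAC3 score of 45 stood beside 42 in 6598 shared peaks inside genes and 43 in 6711 shared intergenic peaks, and beside 23 in 2386 gene-end HDAC3 peaks without KLF4. The median KLF4 score of 92 stood beside 93 in shared peaks inside genes, 93 in shared intergenic peaks, and 63 in 3427 gene-end KLF4 peaks without HDAC3. By fold over input the order changed: HDAC3 had a median of 6.66-fold at shared gene ends, against 7.10-fold inside genes and 7.18-fold between genes, and KLF4 had 9.95-fold, against 11.5-fold in both other places. Gene-end peaks without the other factor had medians of 6.12-fold for HDAC3 and 6.73-fold for KLF4. The HDAC3 quartiles were 4.77 and 9.79 in those peaks and 5.06 and 9.79 at shared gene ends, so HDAC3 differed little by fold. In their own lists 36.2% of the regions were among the highest 10% of HDAC3 scores and 21.1% among the highest 10% of KLF4 scores.

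**Figure D1:**
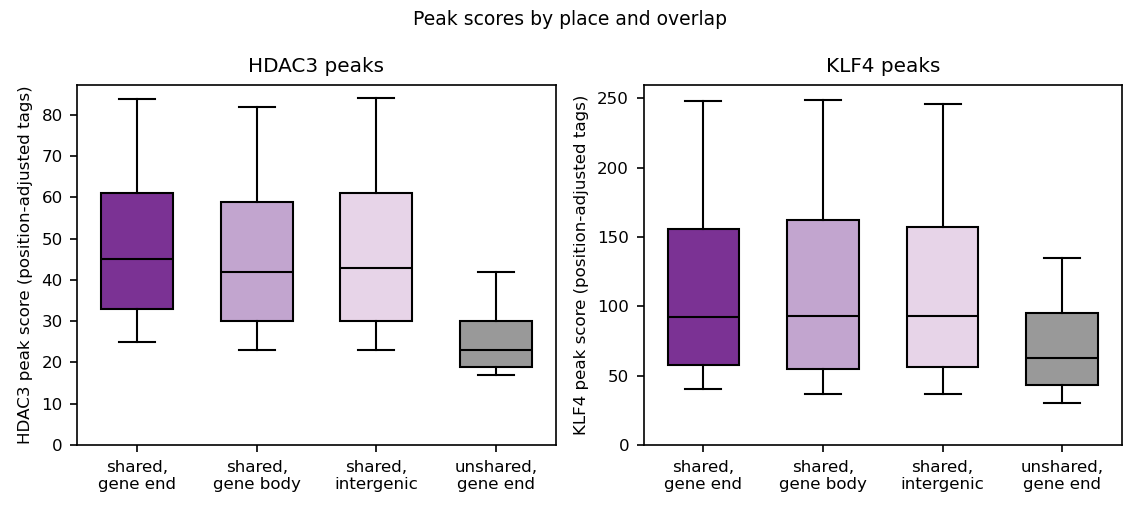
Peak scores (position-adjusted tags, linear axes) of HDAC3 on the left and KLF4 on the right, for shared gene-end peaks, shared peaks in gene bodies, shared intergenic peaks and gene-end peaks without the other factor. Boxes span the quartiles with the median as a line, and whiskers reach the 10th and 90th percentiles. Median HDAC3 scores were 45, 42, 43 and 23, and median KLF4 scores were 92, 93, 93 and 63.

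HDAC3 peaks at gene ends overlapped KLF4 peaks more often than HDAC3 peaks elsewhere. Of 4039 gene-end HDAC3 peaks 40.9% were shared (interval 39.4 to 42.5%), against 24.7% of 26745 peaks inside genes (24.2 to 25.2%) and 24.7% of 27136 intergenic peaks (24.2 to 25.2%). Over all chromosomes the share was 25.8%. From the KLF4 side the shares were closer: 32.6% of gene-end KLF4 peaks overlapped an HDAC3 peak (31.3 to 33.9%), against 30.2% inside genes (29.6 to 30.8%) and 33.2% between genes (32.6 to 33.9%), so the gene-end share was above that inside genes and its interval overlapped that between genes.

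The choice of regions allowed only centres less than 1 peak width apart, so the distance between the summits was bounded in advance. Within that limit the centres were a median of 30 bp apart, with quartiles of 13 and 62 bp, and 68.6% were within 50 bp. The median was 31 bp both in shared peaks inside genes and in shared intergenic peaks, so this spacing was not particular to gene ends. In 19 regions both centres were at the same base pair. Among those 19 were regions at Tssk4, which encodes a testis-type serine kinase, with scores of 79 for HDAC3 and 606 for KLF4, at Snupn, which encodes the snurportin import adaptor, with scores of 92 and 257, and at Slc1a1, a glutamate transporter gene, with scores of 31 and 147. Neither factor lay on a fixed side of the other along transcription. In 914 start regions with 1 direction of transcription the HDAC3 centre was downstream of the KLF4 centre in 457, upstream in 449 and at the same place in 8, so 50.4% of those with an offset had HDAC3 downstream (47.1 to 53.7%).

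Regions just inside the limits of the choice had median scores somewhat above those just outside, in small sets with wide ranges. The 15 regions within 10 bp inside the limit on the centre distance had median scores of 38 for HDAC3 and 76 for KLF4, and the 15 pairs of gene-end peaks within 10 bp outside it had 36 and 62. The 83 regions within 100 bp inside the limit on the distance from a gene end had median scores of 46 and 104, and the 87 shared peaks within 100 bp outside it had 41 and 96.

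Most of the regions were at gene starts. The strand, and so which end is the start, was known for at least 1 gene of 1334 of the 1653 regions (80.7%). Of these, 1034 (77.5%, interval 75.2 to 79.7%) were within 1 kb of a start and no finish, 240 (18.0%, 16 to 20.2%) were within 1 kb of a finish and no start, and 60 (4.50%) were near both. Gene-end HDAC3 peaks without KLF4 were at starts in 64.7% (62.6 to 66.9%) and at finishes in 31.3% of 1934 peaks, and gene-end KLF4 peaks without HDAC3 were at starts in 75.3% (73.7 to 76.9%) and at finishes in 21% of 2823 peaks. Counted by gene, 6.81% of 17492 protein-coding genes of known strand had a shared region within 1 kb of their start and 1.81% within 1 kb of their finish.

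Around starts the shared regions gathered just upstream of the first transcribed base. Their centres had a median position of −62.5 bp, with quartiles of −257 and 170 bp, and 53.1% of 1094 lay within 250 bp of the start (50.1 to 56.1%). HDAC3 peaks without KLF4 were spread more widely, with a median of 12 bp and 34.8% of 1329 within 250 bp (32.2 to 37.4%), and KLF4 peaks without HDAC3 had a median of −52 bp with 42.4% of 2229 within 250 bp (40.3 to 44.5%). Downstream of the start lay 41.7% of the shared regions, 50.9% of HDAC3 peaks without KLF4 and 43.6% of KLF4 peaks without HDAC3.

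**Figure D2:**
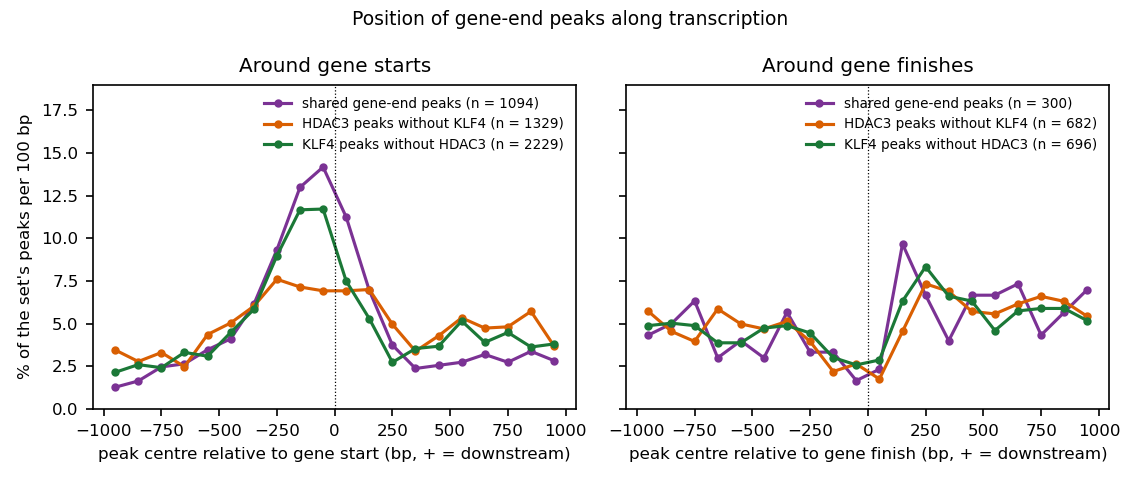
Position of peak centres in bins of 100 bp (horizontal axes, bp from the gene start on the left and from the gene finish on the right, positive downstream), as the percentage of each set's peaks that lie within 1 kb of that end (vertical axis). Shared gene-end peaks (1094 at starts, 300 at finishes) have their highest bin just upstream of the start and another high bin past the finish, and HDAC3 peaks without KLF4 (1329 at starts) are spread more evenly around the start.

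At finishes 60.3% of 300 shared regions lay beyond the end of the annotated transcript (54.6 to 65.9%), with a median of 182 bp past it. HDAC3 peaks without KLF4 lay beyond it in 56.3% (52.5 to 60.1%), with a median of 201 bp. KLF4 peaks without HDAC3 did so in 57.8% (54 to 61.5%), with a median of 176 bp, and all these intervals overlap. Finish regions were at least as high as start regions: the median HDAC3 score was 47 in 240 regions near a finish alone, against 43 in 1034 near a start alone, and the median KLF4 score was 115, against 88. Fold over the surrounding 10 kb ran the other way for HDAC3, with a median of 5.86 at finishes and 6.93 at starts. A start with a RefSeq promoter sequence lay within 1 kb of 6 of the 240 regions (2.50%). Such starts were at hand for 17492 of the 21887 protein-coding genes, so starts outside that set would be missed.

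Named finish regions came from several gene groups. Fos, which encodes an AP-1 subunit, had scores of 129 for HDAC3 and 237 for KLF4 in a region 143 bp beyond its finish. Sprr1b, which encodes a small proline-rich protein of the cornified envelope, had 80 and 92 at 183 bp beyond its finish, and Metrnl, which encodes the secreted protein meteorin-like, had 144 and 487 at 552 bp beyond it. The highest HDAC3 score at a known finish, 169, was at the aldehyde dehydrogenase genes Aldh3b3 and Aldh3b2, with a KLF4 score of 433.

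Most regions belonged to 1 gene. The ends of 1 gene lay within 1 kb of 1403 regions, those of 2 genes within 1 kb of 246 (14.9%), and those of at least 3 genes within 1 kb of 4. Of the 246, 119 were within 1 kb of 2 starts on opposite strands, 45 of a finish and a start, 13 of 2 finishes and 3 of 2 starts on the same strand, and for 66 the strand of a gene was unknown. Being near both ends does not place a region between the genes. Among the 119, the best ranks were at Cc2d1a and 4930432K21Rik, with scores of 129 and 486, followed by Tlcd3a and Vps53, the second of which encodes a subunit of the endosome-to-Golgi tethering complex GARP, with 114 and 447, and both of these regions lay inside a gene. Such a region cannot be given to either gene of the pair.

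Different shared regions at both ends were found in 46 genes, which had a median length of 13256 bp, against 17169 bp over all protein-coding genes. Cldn4, which encodes a tight junction claudin and is 1812 bp long, had HDAC3 and KLF4 scores of 161 and 406 at its start and of 80 and 271 at its finish. Ier3, a short immediate early gene of 1199 bp, had 59 and 81 at its start and 71 and 112 at its finish. Epgn, which encodes the EGF receptor ligand epigen, had 58 and 74 at its start and 69 and 334 at its finish. Flg, which encodes the barrier protein filaggrin, had 35 and 85 at its start and 32 and 28 at its finish, and Cltc, the clathrin heavy chain gene, was the 1 gene with 3 regions.

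By the mean rank of both scores, the region at Plekha6, which encodes a pleckstrin homology domain protein, was the first and that at Tmc8, which encodes a transmembrane channel-like protein, the second. Plekha6 had the highest HDAC3 score of all regions, 214, with 166 HDAC3 tags over 12 input tags and 359 KLF4 tags over 11, after the caller scaled the tags to the input library. Tmc8 had 99.8 HDAC3 tags over 7 input tags and 371 KLF4 tags over 7. Tmem79 encodes mattrin, a lamellar granule protein, and its region 72 bp upstream of the start held 94.5 HDAC3 tags over 6 input tags and 459 KLF4 tags over 5 input tags. Jup encodes plakoglobin of desmosomes and adherens junctions, and its region had 93.5 HDAC3 tags over 8 input tags and 369 KLF4 tags over 8. Krtdap, which encodes a protein secreted by differentiating keratinocytes, had 77.8 HDAC3 tags over 7 input tags and 268 KLF4 tags over 8. In these 5 regions KLF4 tags exceeded HDAC3 tags. Both exceeded the input, which the caller's threshold of 4-fold over input requires of every peak.

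Values of 3 others of the highest 20 are given as examples. Card14, a keratinocyte scaffold gene of NF-kB signalling, had 83.7 HDAC3 tags over 2 input tags and 303 KLF4 tags over 4. Rab11a, which encodes a GTPase of recycling endosomes, had 81.2 HDAC3 tags over 5 input tags and 390 KLF4 tags over 5. Tet3 encodes a dioxygenase that oxidises 5-methylcytosine, and it had 77.8 HDAC3 tags over 10 input tags and 278 KLF4 tags over 10. The other members of the highest 20 were Metrnl, Aldh3b3 with Aldh3b2, Cldn4, Cc2d1a with 4930432K21Rik, Gpx1, Hebp2, Sp6, Tlcd3a with Vps53, Tob2, Zdhhc18, Bin2 and Rbbp8.

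The 2 scores varied together across regions, and their ratio had a wide range. Spearman's rho across the 1653 regions was 0.738 for the scores, 0.510 for the folds over input and 0.508 for the folds over the surrounding 10 kb. These are descriptions across regions that share both libraries, the input and the choice of sites, and regions are not replicates. The ratio of HDAC3 to KLF4 score had a median of 0.489, with quartiles of 0.337 and 0.653, and 90% of regions were between 0.211 and 0.933. Its level is not a measure of relative occupancy, and it serves only to order the regions.

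The end with the highest ratios of HDAC3 to KLF4 score held Krtap2-4, a keratin-associated protein gene of the hair shaft, with 85 for HDAC3 and 41 for KLF4. It also held Dusp6, which encodes an ERK phosphatase, with 77 and 46. Ktn1, which encodes the kinesin-binding protein kinectin, had 59 and 32, and Glrp1 and Exoc1, an exocyst subunit gene, had 48 and 32 and 40 and 27. By fold over input Glrp1 ran the other way, with 10.4 for HDAC3 and 14.5 for KLF4. The other regions of this end had the higher fold for HDAC3. The end with the lowest ratios held Inppl1, which encodes the inositol phosphatase SHIP2, with 30 and 311, and Med1, a Mediator subunit gene, with 50 and 419. Tmem184a had 74 and 693, Fam3b had 73 and 614, and Sgta, which encodes a co-chaperone, had 46 and 371.

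**Figure D3:**
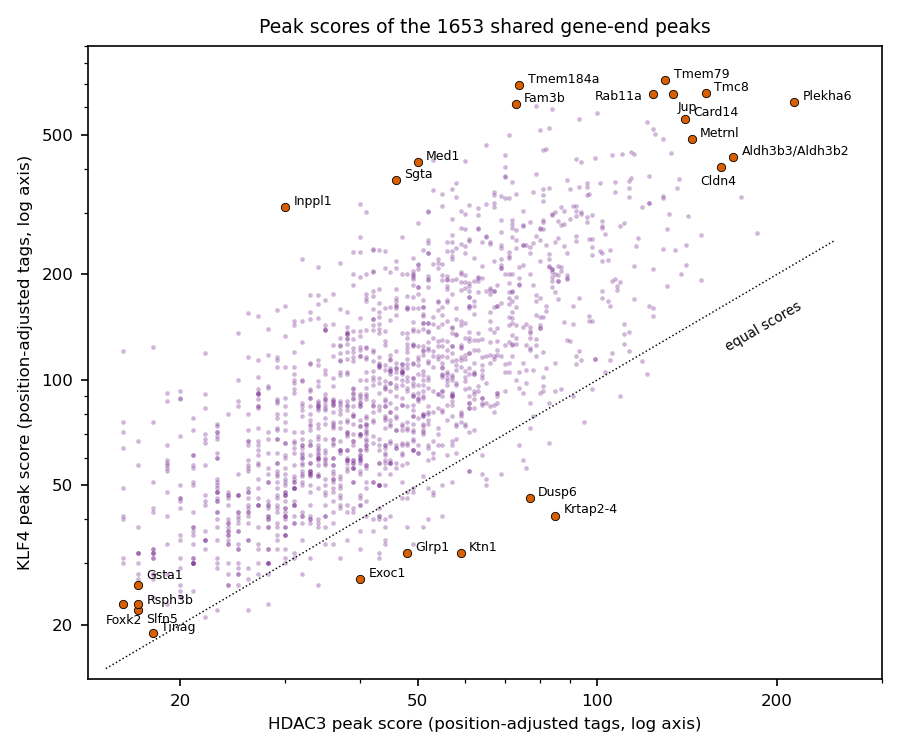
HDAC3 score (horizontal, log axis) against KLF4 score (vertical, log axis), both in position-adjusted tags, with 1 point for each of the 1653 shared gene-end peaks. Orange points are named regions with the best mean rank, the highest and lowest ratios and the lowest scores, and the dotted line marks equal scores. Most points lie above the line, and the median ratio of HDAC3 to KLF4 score is 0.489. The scores come from different antibodies and libraries, so the line does not mark equal occupancy.

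Some of the highest folds rested on very few input tags. The region near the starts of Gemin4, a gene of the SMN complex, and Dbil5 lay inside a gene and was 148-fold over input for HDAC3 and 218-fold for KLF4, with input tags at 0.5, the value the caller wrote where it counted none. Clcn3, which encodes a chloride and proton exchanger of endosomes, had folds over input of 105 for HDAC3 and 338 for KLF4, also at 0.5 input tags. Their folds over the surrounding 10 kb were 12.7 and 16.3 for Gemin4 and Dbil5, and 34.4 and 62.8 for Clcn3. At the low end Foxk2 had scores of 16 and 23, Slfn5 17 and 22, Rsph3b 17 and 23, Tinag 18 and 19, and Gsta1, a glutathione transferase gene of a multigene family, 17 and 26.

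Cornified envelope and late differentiation genes had a shared region more often than any other of the 26 groups examined. There were 20 such genes of 39 (51.3%, interval 34.8 to 67.6%), against 8.32% of all protein-coding genes, and 14 of the 33 with known strand had the region at their start, against 6.81%. An HDAC3 peak was at an end of 24 of the 39, against 18.9% of all protein-coding genes, and a KLF4 peak at an end of 25, against 23.1%. The median scores of the 20 were 58 for HDAC3 and 128 for KLF4, against 45 and 92 over all 1822 genes with a region.

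The 20 genes covered the enzymes, the structural proteins and the proteases of cornification. Tgm1, which encodes the transglutaminase that crosslinks the envelope, had scores of 92 for HDAC3 and 293 for KLF4 at 111 bp upstream of its start, and Tgm5, a second transglutaminase gene, had 55 and 130. Among structural genes, Lor (loricrin) had 74 and 210, Ivl (involucrin) had 74 and 95, Evpl (envoplakin) had 81 and 282, and Flg2 had 57 and 119. Klk7, which encodes a protease that sheds cornified cells, had 67 and 312 at 25 bp inside its start, and Casp14, the caspase of cornifying cells, had 55 and 193. The small proline-rich genes Sprr1a and Sprr1b had 66 and 248 and 80 and 92, and Sprr2h had 36 and 126. Sprr and Lce genes are multigene families of close copies, and how reads that match several copies were treated is not given in the sources used here.

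Barrier lipid and lamellar granule genes had a shared region in 14 of 44 cases (31.8%, 18.6 to 47.6%), and their KLF4 peaks were high, with a median score of 218 beside a median HDAC3 score of 59.5. Beside Tmem79 (130 and 717) and Rab11a (124 and 656) were Abca12, the lipid transporter gene of lamellar granules, with 73 and 339 at 113 bp upstream of its start, and Acer1, a ceramidase gene, with 82 and 243. Ugcg, which encodes glucosylceramide synthase, had 50 and 214, Slc27a4, which encodes a fatty acid transporter, had 69 and 243, and Sdr9c7, a dehydrogenase gene of ceramide processing, had 57 and 221. The regions of Ugcg and Slc27a4 were beyond the finish.

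Junction genes followed with 12 of 39 (30.8%, 17.0 to 47.6%). Cldn4 (161 and 406) and Jup (134 and 653) had the highest HDAC3 scores, followed by Pkp3, which encodes plakophilin of the desmosomal plaque, with 96 and 356, and Dsc1, a desmosomal cadherin gene of upper layers, with 72 and 285. Cdh3, which encodes P-cadherin, had 36 and 34. In the related group of keratins 8 of 53 genes (15.1%, 6.75 to 27.6%) had a region, and this interval includes the background of 8.32%. Krt23 had the highest HDAC3 score (115 and 212), followed by Krt17 (89 and 194), Krt16 (63 and 192) and Krt12 (57 and 259). Krt16 and Krt17 are known from wounded and appendage epithelium. The others were Krt88, Krt86 and the inner root sheath genes Krt25 and Krt27.

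Groups of earlier layers had counts near the background. The spinous layer and Notch group had 2 of 22 genes (9.09%, 1.12 to 29.2%), Notch2 and Klf5, and the basal layer and adhesion group had 1 of 21 (4.76%, 0.120 to 23.8%), Sox4 with 21 and 78. Both intervals include 8.32%, and with a window of 5 kb around gene ends the spinous and Notch group was at 50% against a background of 19.9%. With the window of 1 kb, the interval of the cornified envelope group lies above that of the basal group.

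Immediate early genes had 9 of 25 (36.0%, 18.0 to 57.5%), with the highest median HDAC3 score of any group of at least 3 genes with a region, 98, beside a median KLF4 score of 129. Atf3, a stress-induced factor gene, had scores of 105 and 114 at 7 bp inside its start, Ier5 had 99 and 115, Egr1, a zinc finger factor gene, had 98 and 147, and Ier2 had 98 and 239. Jun had 90 and 129 at 335 bp from its finish and Jund 93 and 171. Dusp6 is in this group, so 1 of the 5 regions with the highest ratio of HDAC3 to KLF4 score was at an immediate early gene.

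Inflammatory and growth factor genes were also above the background. NF-kB and keratinocyte inflammation genes had 9 of 39 (23.1%, 11.1 to 39.3%), with Card14 (140 and 557), Stat3 (129 and 334), the interleukin 1 receptor antagonist gene Il1rn (85 and 178) and the NF-kB inhibitor gene Nfkbia (85 and 112) at the top. EGF receptor signalling genes had 6 of 26 (23.1%, 8.97 to 43.6%), among them Epgn (69 and 334), Erbb3 (49 and 146) and Adam17 (30 and 51), which encodes the protease that sheds EGF receptor ligands. Epidermal transcription factors had 8 of 45 (17.8%, 8 to 32.1%), including Hopx (119 and 312), the Grainyhead factor gene Grhl2 (109 and 190), Elf3 (96 and 337) and Zfp750 (75 and 142). The interval of this last group reaches below 8.32%.

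Of the housekeeping groups, 2 had intervals above the background. Cytosolic ribosomal protein genes had 17 of 84 (20.2%, 12.3 to 30.4%), with Rpl3 (119 and 113), Rpl18 (99 and 430) and Rpl41 (89 and 130) the highest, and proteasome genes had 8 of 39 (20.5%, 9.30 to 36.5%), with Psmd3 (79 and 117) the highest. Mitochondrial complex I genes had 1 of 39 (2.56%, 0.0649 to 13.5%), Ndufb11 with 23 and 22, and this interval includes 8.32% and overlaps those of the ribosomal and proteasome groups. Rab GTPase genes had 9 of 59 (15.3%), p53 target genes 4 of 25 (16%), cell cycle genes 4 of 34 (11.8%), circadian clock genes 3 of 21 (14.3%) and solute carrier genes 30 of 352 (8.52%), all with intervals that include 8.32%. The high-affinity glutamate transporter gene Slc1a1 and the thiamine transporter gene Slc19a3 (94 and 298) were among the solute carriers.

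Other groups were at or under the background. None of 1106 olfactory receptor genes had a region, which allows a share of up to 0.271% by the limit of 3 counts in 1106 and of up to 0.333% by the exact interval. An HDAC3 peak was at an end of 32 of them and a KLF4 peak at an end of 4. Zfp-named zinc finger genes had 24 of 394 (6.09%, 3.94 to 8.93%). HDAC3 corepressor subunit and histone deacetylase genes had 2 of 26 (7.69%), Hdac4 with 56 and 193 and Gps2, a corepressor subunit gene, with 51 and 53 in a region shared with Neurl4. Hair placode genes had 1 of 18, Ctnnb1.

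The intervals of 4 groups of markers of cell types other than keratinocytes all include the background of 8.32%. Melanocyte markers had 1 of 10 (10%, 0.253 to 44.5%), Pmel, whose region was also at the start of Rab5b, and dermal fibroblast markers had 1 of 12 (8.33%, 0.211 to 38.5%), Vim with 28 and 140. Immune cell markers had 0 of 11, which allows up to 27.3% by the limit of 3 counts and up to 28.5% by the exact interval, and endothelial and muscle markers had 0 of 12, which allows up to 25% and up to 26.5%. What part such cells have in the peaks was not tested. Of the keratinocyte markers Krt5, Krt14, Krt1, Krt10, Lor and Ivl, only Lor and Ivl had a region.

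**Figure D4:**
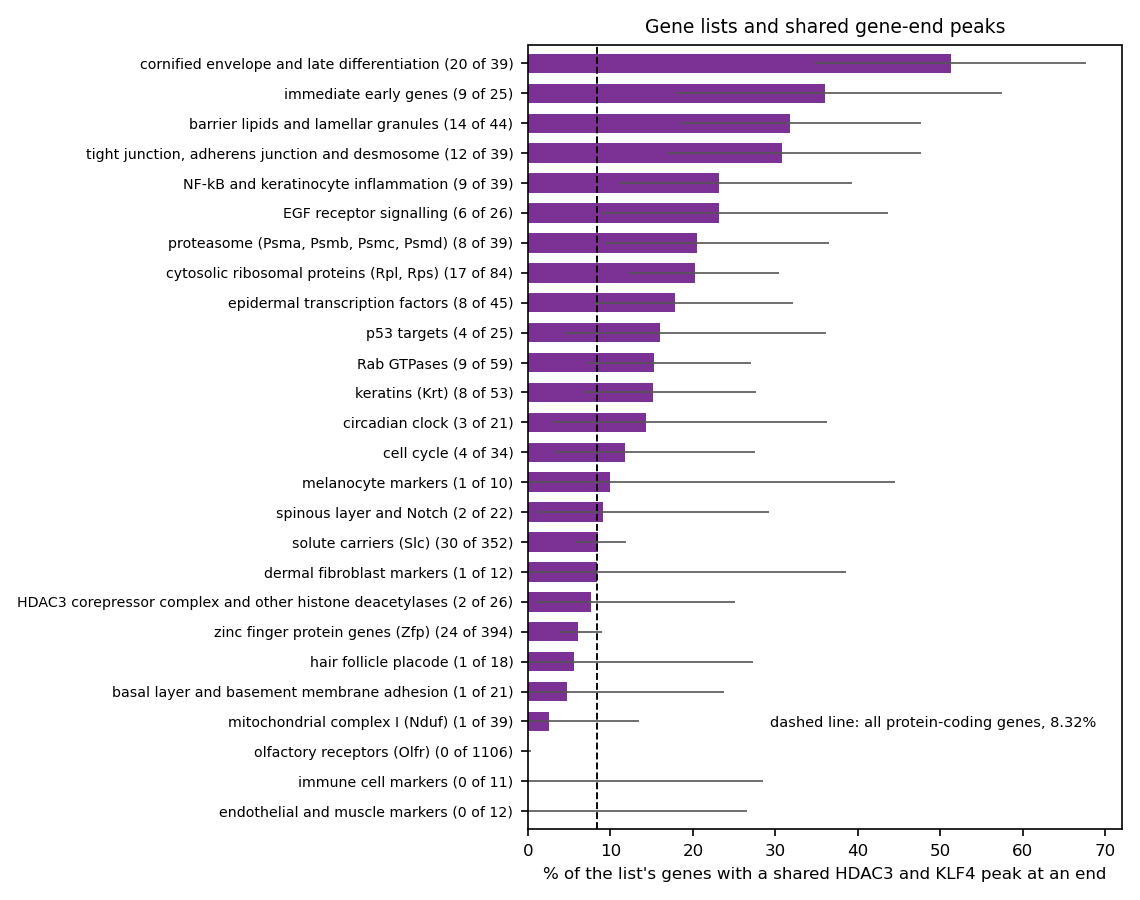
Share of the genes in each of 26 groups with a shared HDAC3 and KLF4 peak within 1 kb of an end (horizontal axis, percent), with the number of genes with a region and the group size beside each name. Lines are exact 95% binomial intervals and the dashed line is the share of all protein-coding genes, 8.32%. The cornified envelope group has the highest share, 51.3%, and olfactory receptors have 0 of 1106.

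Genes with a region were unevenly spread over chromosomes. The share of protein-coding genes was 14.2% on chromosome 11 (12.6 to 16%), 11.2% on chromosome 19 and 11% on chromosome 15, against 8.32% over all. It was 2.48% on chromosome X (1.60 to 3.67%), and none of 256 genes on chromosome Y had one, which allows a share of up to 1.17% by the limit of 3 counts and up to 1.43% by the exact interval. The epidermal differentiation complex on chromosome 3 held Lor, Ivl, Flg and the Sprr genes, and 10.4% of the genes of that chromosome had a region (8.54 to 12.5%).

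The promoters of these genes were set beside other promoters by their bases. A RefSeq promoter of 300 bases, from 250 bases before the start to 50 after it, was available for 1456 of the 1822 genes with a region. As this is just under 80% of them, no statement is made on the promoters of all 1822 genes, and the values describe only the windows at hand. The centre of a shared region lay in 478 windows of 463 genes, an HDAC3 centre without KLF4 in 354, a KLF4 centre without HDAC3 in 948, and all windows numbered 21263. Windows of alternative starts of 1 gene share bases. Median G+C was 57.3% in windows with a shared region, 56.2% with HDAC3 alone, 57.0% with KLF4 alone and 56.3% over all windows, and the median ratio of observed to expected CpG was 0.694, 0.619, 0.665 and 0.567.

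KLF-type motifs were more frequent in windows with a shared region than in windows with HDAC3 alone, and not more frequent than in windows with KLF4 alone. On either strand GGGTGTG was found in 12.1% of windows with a shared region (9.34 to 15.4%), in 5.08% with HDAC3 alone (3.04 to 7.92%), in 13.7% with KLF4 alone (11.6 to 16.1%) and in 8.02% of all windows. GGGCGTG was found in 15.9% (12.7 to 19.5%), 8.76% (6.03 to 12.2%), 22.2% (19.5 to 24.9%) and 10.9% in the same order of windows. CCACCC was found in 40.4%, 30.8%, 43.2% and 33.6%, and the GC box GGGCGG, which shares its first 5 letters with GGGCGTG, in 59.6%, 44.9%, 61.8% and 46.2%. At least 1 of the 2 KLF-type motifs was in 25.7% of windows with a shared region (21.9 to 29.9%), so most windows had neither. The share was 13% with HDAC3 alone (9.67 to 16.9%), 32.7% with KLF4 alone (29.7 to 35.8%) and 17.8% of all windows.

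AP-1 and Grainyhead-type motifs had their highest shares in windows with a shared region. The AP-1 motif TGANTCA was found in 13.2% of them (10.3 to 16.5%), in 8.19% with HDAC3 alone (5.55 to 11.6%), in 9.18% with KLF4 alone (7.42 to 11.2%) and in 6.99% of all windows (6.65 to 7.34%). The Grainyhead-type motif AACCNG, which is short and frequent, was found in 52.9% (48.3 to 57.5%), 44.6%, 46.2% (43.0 to 49.4%) and 39.9% (39.3 to 40.6%). For both motifs the interval with a shared region lies above that of all windows and overlaps that of KLF4 alone. The ETS motif CCGGAAG was found in 20.3%, 17.2%, 20.8% and 11.6%, and the TATA box TATAAA in 13.6%, 8.19%, 8.65% and 12.6%.

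The remaining motifs set the shared windows less apart. CCAAT, searched as ATTGG on either strand, was found in 37.2% of windows with a shared region, in 48.0% with HDAC3 alone (42.7 to 53.4%), in 37.9% with KLF4 alone and in 38.2% of all windows. The E-box CACGTG was found in 9.41%, 13.8%, 6.86% and 7.84%, TGCGCA (part of an NRF1 site) in 11.3%, 11.6%, 11.9% and 9.74%, and the TEAD motif GGAATG in 15.7%, 12.1%, 14.5% and 13.6%. When windows were split at the median of the CpG ratio, a split chosen after the values were seen, AP-1 was found in 23.4% of CpG-poor windows with a shared region, against 10.4% of all CpG-poor windows, and in 6.8% of CpG-rich ones, against 3.59% of all CpG-rich windows. Among CpG-rich windows the GC box was found in 72.1% with a shared region (66.6 to 77.2%). This interval includes the 73.6% of all CpG-rich windows. Among CpG-poor windows the GC box was found in 39.7% with a shared region (32.6 to 47.1%), against 18.9% of all. The CpG-poor shares were 44.6% with KLF4 alone and 26.4% with HDAC3 alone. GGGTGTG was found in 9.52% of CpG-rich windows with a shared region (6.42 to 13.5%), against 7.59% of all CpG-rich windows. In the same order GGGCGTG was found in 20.1% (15.6 to 25.1%) and 17.5%. Among CpG-poor windows GGGTGTG was found in 16.3% with a shared region (11.3 to 22.5%), against 8.46% of all. There GGGCGTG was found in 9.24% (5.47 to 14.4%) and 4.36%. For both motifs the interval lay above the share of all windows only among CpG-poor windows. CpG-poor windows with KLF4 alone had higher shares of both, 20.3% (16.3 to 24.9%) for GGGTGTG and 15% (11.5 to 19.2%) for GGGCGTG. These intervals overlap those of the shared windows. AP-1 was found in 14.5% of CpG-poor windows with KLF4 alone (11 to 18.6%) and in 12.9% with HDAC3 alone (8.16 to 19%). Both intervals overlap that of CpG-poor windows with a shared region (17.5 to 30.2%).

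**Figure D5:**
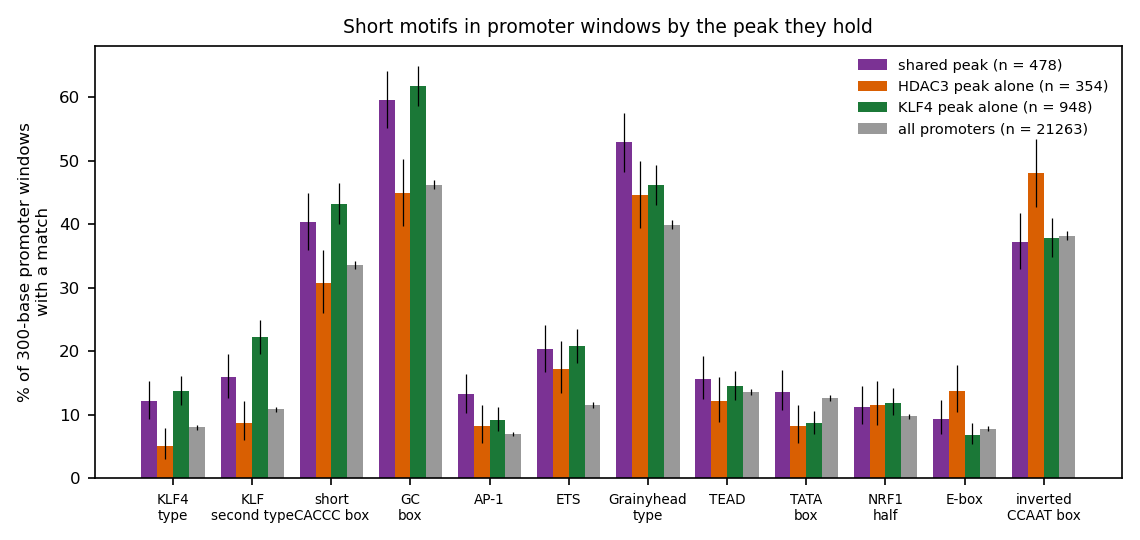
Share of 300-base promoter windows (vertical axis, percent) with at least 1 match on either strand to each of 12 short motifs (horizontal axis), for windows that hold the centre of a shared region, of an HDAC3 peak alone, of a KLF4 peak alone, and for all windows. Lines are exact 95% binomial intervals. KLF-type motifs are at 12.1% and 15.9% of windows with a shared region, and the AP-1 motif is at 13.2%, against 6.99% of all windows.

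Within the 478 windows the density of matches near the peak centres was set beside that outside the peaks. The TEAD motif had 0.884 matches per kb within 25 bp of the KLF4 centre (interval 0.532 to 1.38) and 0.932 within 25 bp of the HDAC3 centre (0.584 to 1.41), against 0.367 in the bases outside both peaks (0.224 to 0.567). AP-1 had 0.465 near the KLF4 centre (0.223 to 0.855) and 0.593 near the HDAC3 centre (0.324 to 0.995), against 0.202 outside (0.101 to 0.361). The Grainyhead-type motif had 3.12 (2.41 to 3.96) and 2.67 (2.05 to 3.42), against 1.96 (1.61 to 2.37). The KLF4-type motif had 0.698 near the KLF4 centre (0.390 to 1.15) and 0.466 near the HDAC3 centre, against 0.293 outside (0.168 to 0.477). The second KLF-type motif had 0.512 near the KLF4 centre (0.255 to 0.915) and 0.805 near the HDAC3 centre (0.485 to 1.26), against 0.605 outside (0.417 to 0.850). Of these 5 motifs, the intervals of TEAD near the HDAC3 centre and of the Grainyhead-type motif near the KLF4 centre lay above those outside the peaks, and the other intervals overlapped them. The GC box ran the other way, with 3.35 and 2.29 near the centres, against 5.06 outside (4.48 to 5.70). The counts behind these densities are small, 15 matches of the KLF4-type motif near the KLF4 centre and 16 outside, and the bases outside both peaks lie at other distances from the start.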

How the data were processed

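Per the file headers, the authors called peaks with HOMER findPeaks in factor style for each ChIP library against 1 input library, with a fixed width of 185 bp, a minimum distance of 370 bp, an FDR of 0.001 and at least 4-fold over input and over the surrounding 10 kb. STAR, HOMER and build GRCm38.p5 are given in the submitters' processing notes. The deposited signal values are tags normalised to a fixed library size and tags scaled to the input, with 0.5 written for no input tag. The deposited score is a position-adjusted tag number, the ratio (fold) values are over input and local region, the fraction is the focus ratio, and the deposited p-value columns were not used. Peaks were called once per library with no pooling, so the score and fold of a peak are the authors' own values.

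From these tables, peak centres were paired on the same chromosome at up to 184 bp and placed within 1000 bp of the ends of 21887 protein-coding genes of the RefSeq table for GRCm38.p6, whose patches leave the primary chromosome coordinates of GRCm38.p5 unchanged. The strand and start came from the RefSeq promoter table and were known for 17492 genes. A region near genes of known and unknown strand (56 regions) was placed by the known ones. Motifs were spelled out by hand and searched on both strands. Shares have exact Clopper-Pearson 95% intervals, and the pairing was tested on simulated peaks. Python 3.11.15, pandas 2.3.3, numpy 2.4.6, scipy 1.17.1 and matplotlib 3.10.9 were used.

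The regions, the 26 gene lists and the motifs were chosen with earlier results of these data known. Genes were named by a rule: the 20 regions with the best mean rank, the 5 highest and 5 lowest score ratios, the 5 highest folds of each factor, the 5 lowest regions, centres at 0 bp, genes with regions at both ends, and up to 4 genes per list by HDAC3 score. Other genes named, and the sequences printed, were chosen after their values were seen. Alternatives were the centre distance, the gene-end window, the genes whose ends count and stricter peak thresholds.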

Additional observations from a re-analysis of the deposited data

How the results depend on the processing

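No paired analysis was possible because each antibody has 1 library, and no library could be left out. With centres at most 50 bp apart the share of gene-end HDAC3 peaks that were shared was 28.1%, median scores were 47 for HDAC3 and 98 for KLF4, and the median centre distance was 19 bp. With a gene-end window of 500 bp the share was 46.4% and 84.8% of regions were at starts. With 5 kb there were 4093 regions at 4348 genes, a share of 34.6%, a median KLF4 score of 100 and 54.6% at starts. With the ends of all genes there were 2825 genes, a share of 36.6% and 72.1% at starts. With both peaks at least 8-fold over input there were 495 regions at 546 genes, a share of 35.7%, median scores of 56 and 129, a median distance of 26 bp and 73.2% at starts. With both peaks in the upper 50% of scores the share was 38.3% and the median scores 53 and 123. The settings count different regions, and the cause of these moves was not tested.

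The share of all protein-coding genes with a region was 8.32% as reported, 5.72% with 500 bp, 19.9% with 5 kb, 2.49% at 8-fold and 5.78% in the upper 50% of scores. Against it the cornified envelope group stood 6.16 times higher as reported and 3.74 to 12.3 times higher over these 4 settings, barrier lipid genes 3.09 to 8.20 times, junction genes 2.45 to 7.19 times and immediate early genes 3.02 to 6.41 times. The spinous and Notch group and the corepressor group were on the same side of the background as reported in 1 of the 4 settings. Depth limits the low end: the lowest scores are 16 for HDAC3 and 19 for KLF4, at the caller's tag thresholds, so a site under them would be counted as unshared.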
